A study of Drosophila melanogaster with 2 samples.

Results

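Chromosome 4 of Drosophila melanogaster, also called the dot chromosome, was represented by 78 of the 15906 features in a comparison of whole adult males with and without overexpression of the microRNA miR-305. The 78 are the features with a deposited locus on chromosome 4, after those named as ribosomal proteins, eIF factors, microRNAs, small nucleolar RNAs or CR noncoding RNAs had been left out. Males of the miR-305 group carried the da-Gal4 driver and the UAS-miR305 transgene (da-Gal4/UAS-miR305). Males of the control group carried 1 copy of the same driver without the transgene (da-Gal4/+). The daughterless driver is active in most or all tissues, and both groups were 15 days old. Each group had 1 library of polyadenylated RNA, and how many flies it came from was not given in the sources used here. No test between groups exists with 1 library per group, and no difference below has a replicate check. In whole flies, fewer cells of a type and less RNA per cell cannot be told apart.

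The dot chromosome is the smallest chromosome of the fly. Its genes lie among repeats, in chromatin rich in the heterochromatin protein HP1a and in methylation of histone H3 at lysine 9, and yet many of them are active. A protein known as POF paints this chromosome: it binds the transcribed genes and raises their output, while HP1a binds the same genes. The chromosome carries several developmental regulators, such as eyeless and cubitus interruptus, beside genes for energy metabolism that every cell uses.

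Levels are FPKM values made by the authors (fragments per kilobase, scaled for library size), so that genes of different length can be compared. How the scaling between the libraries was set cannot be told from the values. The log2 ratio sets FPKM + 1 of the miR-305 library over FPKM + 1 of the control library. It understates the differences of low genes and was taken where the mean FPKM of both libraries reached 1. Folds of single genes are ratios of their FPKM values with nothing added, and genes were counted as past a fold on the log2 scale with 1 added. The table's FPKM values summed to 1176985 for miR-305 males and 967511 for control males, and the depth of either library is unknown. The mir-305 stem-loop on chromosome 2L had 546 FPKM in miR-305 males and was listed at 0 in controls, as the labels have it.

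Genes of chromosome 4 were, as a set, slightly lower in the miR-305 library. Of the 78 genes, 73 had a mean FPKM of at least 1, and 61 of these (83.6%) had a log2 ratio below 0, where 53.6% of all 11936 features did. Their median log2 ratio was -0.24, with quartiles of -0.37 and -0.03, which is 0.845 times the control level of FPKM + 1. For features off chromosome 4 the median was -0.02, with quartiles of -0.24 and 0.18. The differences of single genes were small. At least 2-fold higher were 0 of 73 genes, against 2.36% of all features, and at least 2-fold lower were 0 of 73, against 1.74%, which is 4.11% of all features for both directions. Smaller folds were looked at after the values were seen, again on the scale with 1 added. At least 1.5-fold lower was 1 of 73 genes, CG9935, against 5.97% of all features, and at least 1.5-fold higher were 0, against 6% of all features. With nothing added, further genes were past 1.5-fold lower, among them CG32017 (1.62-fold) and Actbeta (1.61-fold). The largest fold in the other direction was then 1.27. At least 1.3-fold lower were 17 of 73 genes (23.3%), against 14.3% of all features, and at least 1.3-fold higher were 0, against 11.2% of all features. At least 1.2-fold lower were 34 of 73 genes (46.6%), against 22.9% of all features. At least 1.2-fold higher were 2 genes (2.74%), against 17.8% of all features.

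The count of genes below 0 moved with the scaling, and the gap to the other features moved less. With both libraries scaled to the same median, 52 of the 73 genes (71.2%) had a ratio below 0, against 45.7% of features off the chromosome. With the same sum in both libraries, 71 genes (97.3%) did, against 81.5%. That last scaling alone moved the median over all features by -0.25. The median of the chromosome 4 genes lay 0.22 below that of the other features with the deposited values and 0.17 below it with the same sum.

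**Figure D1:**
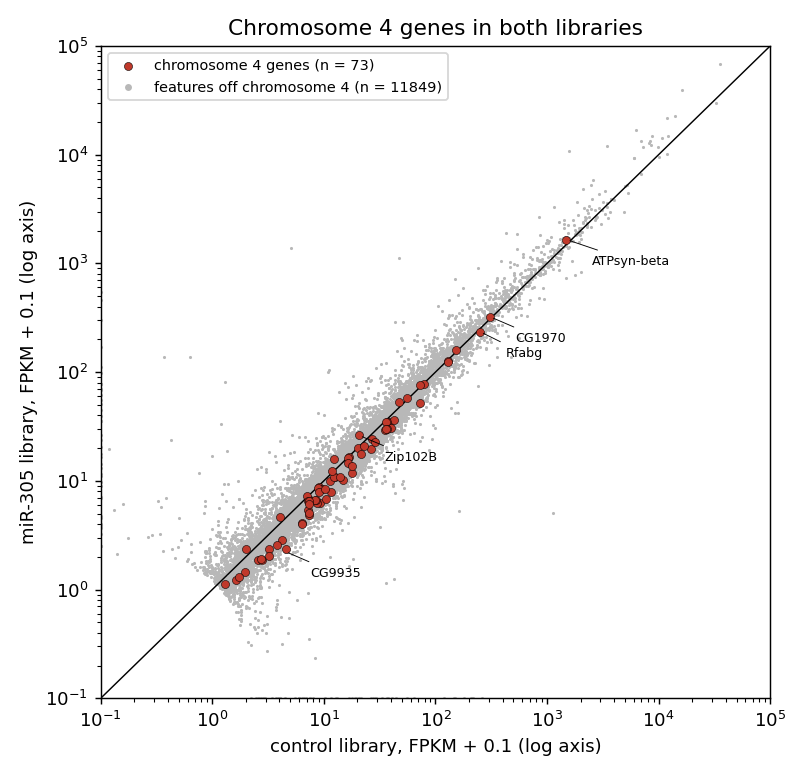
FPKM + 0.1 in the miR-305 library (vertical log axis) against the control library (horizontal log axis) for 73 chromosome 4 genes (red) and 11849 other features (grey), with the line of equal values. Most red points of low and middle level lie just under the line, and ATPsyn-beta, at 1656 against 1493 FPKM, lies just above it.

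No large arm of the genome had a median near that of chromosome 4. The medians were -0.01 for 2L, -0.03 for 2R, -0.03 for 3L, -0.02 for 3R and -0.04 for X. The share of features below 0 was 52.2% to 55.3% on these arms. The Y chromosome had 7 expressed features with a median of -0.41, of which 6 lay below 0. The proximal ends of 2L, 2R, 3L and 3R, which border the centromeres and are also rich in HP1a, were taken as a further set after the values were seen. Their limits were 22 Mb on 2L, 5.5 Mb on 2R, 23 Mb on 3L and 4 Mb on 3R. This set of 126 features had a median of -0.15, with 85 (67.5%) below 0, against 53.6% of all features. In it 40 (31.7%) were at least 1.2-fold lower, against 22.9% of all features. The parts of this set differed, with medians of -0.20 on 2R (47 features), -0.11 on 3L (39 features), -0.01 on 2L (34 features) and 0.01 on 3R (6 features).

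**Figure D2:**
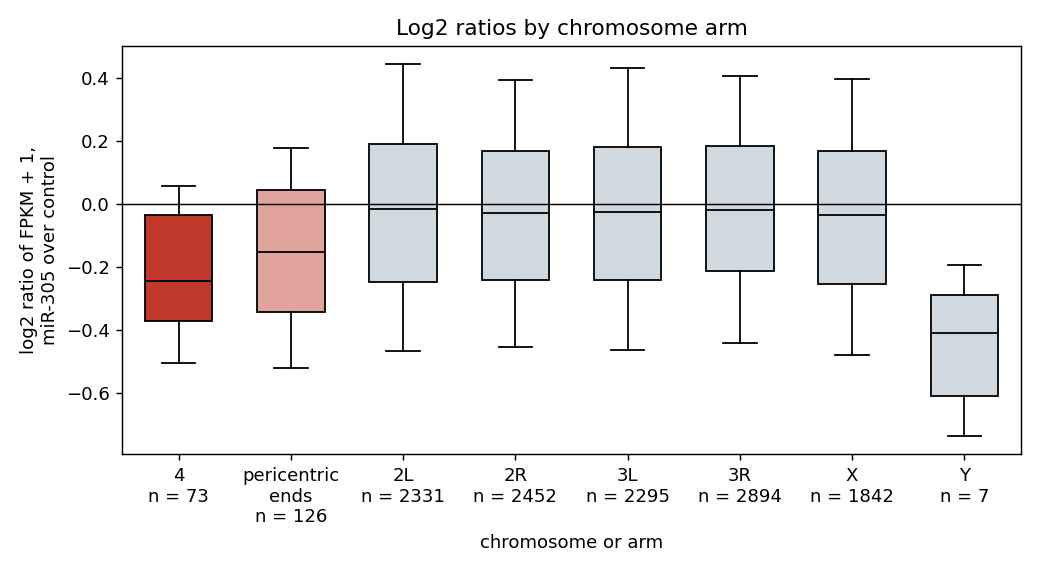
Log2 ratio of FPKM + 1, miR-305 over control (vertical axis), for the 73 chromosome 4 genes, the 126 features of the pericentric ends and each other arm. Lines are medians, boxes quartiles and whiskers the percentiles 10 and 90; the box of chromosome 4 lies wholly below 0, and so does that of the 7 features on Y.

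Chromosome 4 genes have long transcripts, and length moved with the ratio. The longest annotated transcript had a median of 3804 nt for the 73 genes and 1782 nt for protein-coding genes elsewhere. Among the 13 chromosome 4 genes under 2000 nt, 7 (53.8%) had a ratio below 0, against 49.8% of 5764 protein-coding genes elsewhere. The medians of this class were -0.03 on chromosome 4 and 0.00 elsewhere. From 2000 to under 4000 nt the median was -0.24 for 28 genes on chromosome 4 and -0.01 for 2924 genes elsewhere. From 4000 to under 8000 nt it was -0.26 for 26 genes and -0.09 for 1278 genes elsewhere. At 8000 nt or more it was -0.37 for 6 genes and -0.13 for 281 genes elsewhere. In each of these 4 classes the median was lower on chromosome 4 than for protein-coding genes elsewhere, by least in the shortest. Protein-coding genes of the pericentric ends had medians of -0.11 (47 genes), -0.17 (43 genes), 0.06 (15 genes) and -0.39 (2 genes) in these classes. The pericentric medians were below those of chromosome 4 in the shortest and longest classes and above them in the others. Across the 73 genes the ratio had a Spearman rho of -0.38 with transcript length and 0.44 with mean FPKM, and across 10247 protein-coding genes elsewhere the values were -0.07 and 0.19. All genes share the same pair of libraries and are not independent replicates. The part of length in the result was not tested.

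**Figure D3:**
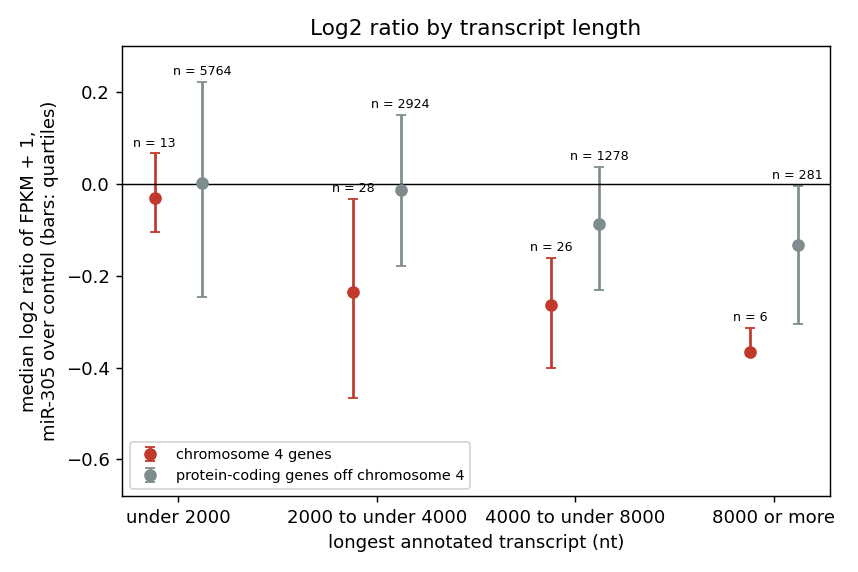
Median log2 ratio of FPKM + 1, miR-305 over control, with quartiles as bars (vertical axis), by class of longest annotated transcript in nt (horizontal axis), for chromosome 4 genes (red) and protein-coding genes elsewhere (grey). The red medians are -0.03, -0.24, -0.26 and -0.37 in order of length, and the grey ones 0.00, -0.01, -0.09 and -0.13.

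The ratio also differed by level, with the lowest medians among the least abundant genes. The 14 genes with a mean FPKM under 5 had a median of -0.32, against -0.09 for protein-coding genes of that level elsewhere. The 35 genes from 5 to 20 FPKM had a median of -0.24, against -0.05 elsewhere. The 24 genes at 20 FPKM or more had a median of -0.10, against 0.05 elsewhere. The levels were also split by transcript length at 4000 nt. Under 5 FPKM the median was -0.27 for the 7 shorter transcripts, against -0.05 elsewhere, and -0.33 for the 7 longer ones, against -0.14 elsewhere. From 5 to 20 FPKM it was -0.19 for the 17 shorter ones, against -0.04 elsewhere, and -0.29 for the 18 longer ones, against -0.08 elsewhere. Below 0 were 15 of those 17 (88.2%), against 56.4% elsewhere, and 17 of those 18 (94.4%), against 68.5% elsewhere. At 20 FPKM or more the median was -0.04 for the 17 shorter ones, against 0.06 elsewhere. It was -0.12 for the 7 longer ones, against -0.05 elsewhere. Below 0 were 11 of those 17 (64.7%), against 41.2% elsewhere, and 6 of those 7 (85.7%), against 59.6% elsewhere. The medians of chromosome 4 genes were the lower ones in all 6 classes, by least at 20 FPKM or more.

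The 12 most abundant of the 78 genes lay on both sides of 0. ATPsyn-beta (chromosome 4, 1031484 to 1034917, dm6), the catalytic beta subunit of the mitochondrial ATP synthase, had 1656 FPKM in miR-305 males and 1493 FPKM in control males, a log2 ratio of 0.15. It alone held 45.1% of the summed FPKM of the 78 genes in miR-305 males and 41.0% in control males. CG1970, now named ND-49, a subunit of respiratory complex I, had 323 against 308 FPKM. Rfabg, now named apolpp, encodes the main lipid carrier protein of the haemolymph and had 235 against 251 FPKM. CG11077, now named Mpv17, had 53.4 against 47.1 FPKM. The summed FPKM of the 78 genes was 3671 in miR-305 males and 3645 in control males. Without ATPsyn-beta it was 2015 in miR-305 males and 2152 in control males. As a share of all FPKM in the table the 78 genes made up 0.312% in miR-305 males and 0.377% in control males. Of the 12 most abundant genes 6 had a ratio above 0 and 6 below, with a median of 0.01 and a range of -0.47 to 0.18. The lowest of these 12 was CG1674, with 52.2 FPKM in miR-305 males and 72.8 FPKM in control males, and the next lowest was Arl4, with 35.8 against 42.6 FPKM.

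Of the 7 expressed genes in the list of mitochondrial, transport and metabolic genes, 4 lay above 0, with a list median of 0.05. The other 3 (42.9%) lay below 0, against 83.6% of the 73 genes and 53.6% of all features. Zip102B (chromosome 4, 310930 to 314087), a predicted zinc transporter gene, had 26.2 FPKM in miR-305 males and 20.6 FPKM in control males. It was 1.27-fold higher, with the highest log2 ratio of the 73 genes at 0.33. JYalpha (879 to 5039), the gene nearest the start of the assembled chromosome, encodes a sodium pump subunit needed for sperm movement. It had 6.10 FPKM in miR-305 males and 9.09 FPKM in control males, 1.49-fold lower. The list also held yellow-h (7.18 against 6.90 FPKM) and CG1909 (6.50 against 8.30 FPKM).

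All 14 expressed transcription factor and cofactor genes of the list lay below 0, and their median log2 ratio was -0.28. The share below 0 was 83.6% among the 73 chromosome 4 genes and 53.6% among all features. At least 1.2-fold lower were 8 of the 14 (57.1%), against 46.6% of the 73 genes and 22.9% of all features. Past 2-fold were 0 of the 14, against 4.11% of all features. NfI, the fly nuclear factor I, differed most, with 4.77 FPKM in miR-305 males and 7.27 FPKM in control males, 1.52-fold lower. The cubitus interruptus gene ci (chromosome 4, 47710 to 57041), whose product carries out Hedgehog signalling in the nucleus, had 2.76 against 4.12 FPKM. Of the paired Pax6 genes that direct eye development, toy had 1.82 against 2.65 FPKM and ey had 1.03 against 1.21 FPKM. The Wnt pathway factor pan, the fly TCF, had 5.26 against 7.10 FPKM, whereas lgs, which links beta-catenin to its coactivator, was near equal at 16.1 against 16.4 FPKM. Mitf, a regulator of lysosomal genes, had 10.6 against 13.9 FPKM. The Polycomb recruitment factor pho had 10.7 against 12.2 FPKM, and bip2, now named Taf3, a subunit of the basal factor TFIID, had 9.87 against 11.1 FPKM. These genes were low to moderate in both libraries, and lgs was the most abundant of them in each. The list also held sv, a Pax2 relative, with 0.47 FPKM in miR-305 males and 1.0 FPKM in control males, and fd102C, a forkhead factor with 0.25 against 0.31 FPKM, both too low for the filter. MED26, a subunit of the Mediator that links such factors to RNA polymerase, was outside the list and had 6.66 against 10.4 FPKM, 1.57-fold lower. The corepressor gene fuss, also outside it, lay above 0 with 4.53 against 3.91 FPKM.

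Of the 17 genes for ligands, receptors, kinases and GTPase regulators, 16 (94.1%) lay below 0, and the median log2 ratio was -0.24. Below 0 were 83.6% of the 73 chromosome 4 genes and 53.6% of all features. At least 1.2-fold lower were 7 of the 17 (41.2%), against 46.6% of the 73 genes and 22.9% of all features. Past 2-fold were 0 of the 17, against 4.11% of all features. The 3 ligands of the TGF-beta superfamily on this chromosome were all lower. The myoglianin gene myo (690686 to 696055), whose product is related to myostatin, had 11.6 FPKM in miR-305 males and 17.6 FPKM in control males, 1.52-fold lower. Actbeta, an activin, had 1.94 against 3.12 FPKM, 1.61-fold lower. The ligand gene mav had 8.27 against 9.55 FPKM. Among guidance genes, the semaphorin receptor gene PlexA (1009895 to 1027101) had 7.84 against 11.6 FPKM, 1.48-fold lower, and its relative PlexB had 6.53 against 7.43 FPKM. Ephrin had 6.56 against 8.40 FPKM and its receptor gene Eph 14.5 against 16.4 FPKM. CaMKII, a calcium-dependent kinase of synapses and muscle, had 22.6 against 28.8 FPKM, and Asator, a kinase of the tau-tubulin kinase family, had 6.16 against 8.56 FPKM. The adaptor gene Crk was the only one of the 17 above 0, with 57.1 against 55.4 FPKM, and Arf102F, a small GTPase of membrane traffic, was near equal at 125 against 129 FPKM.

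**Figure D4:**
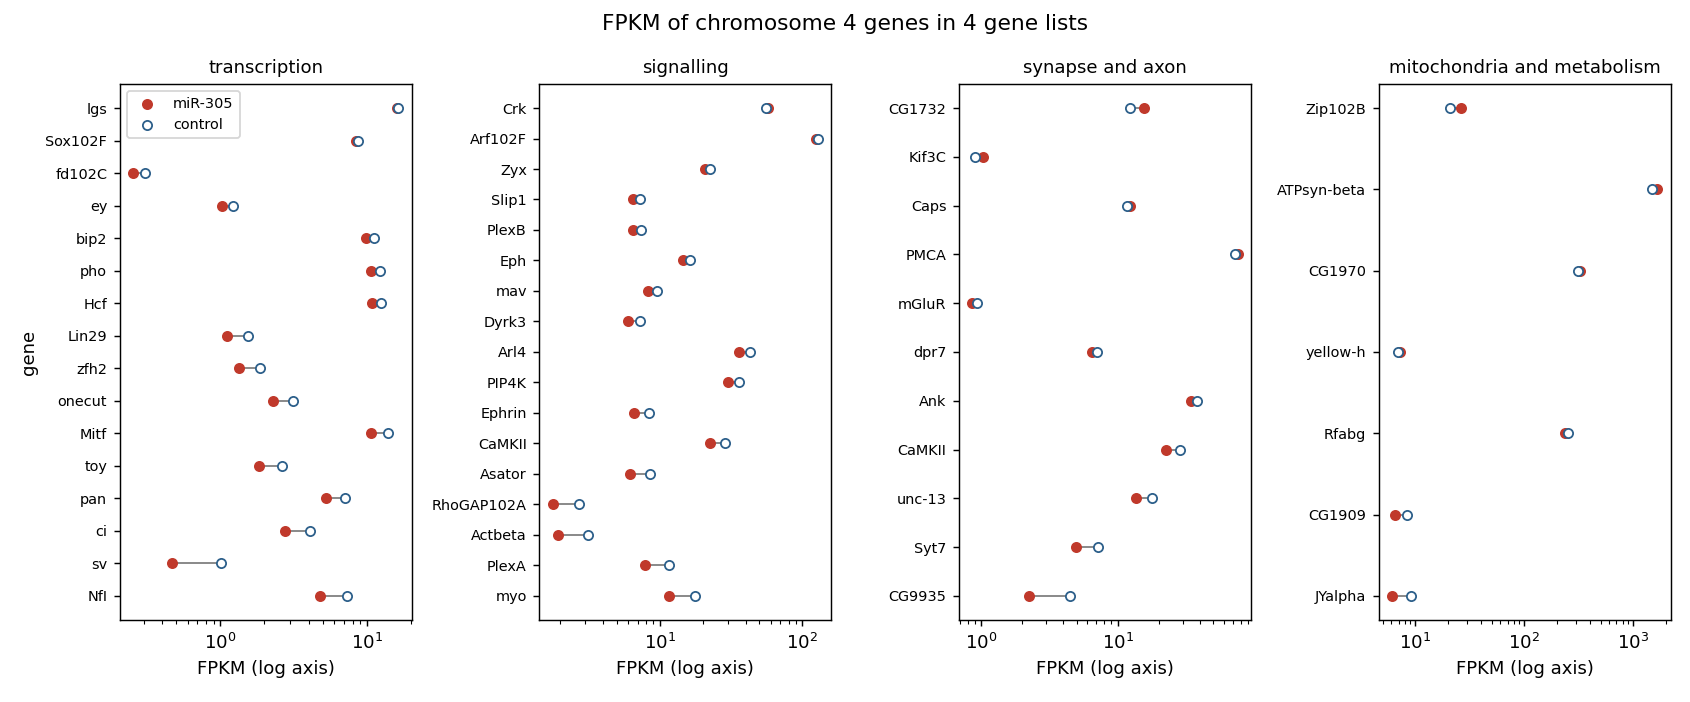
FPKM (horizontal log axis) of each gene in 4 of the gene lists, with the miR-305 library as filled red points and the control library as open blue points. In the transcription panel every red point lies left of its blue point; in the metabolism panel they lie on both sides.

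Synaptic and axonal genes were mixed. Of 9 expressed members 6 (66.7%) lay below 0, against 83.6% of the 73 chromosome 4 genes and 53.6% of all features. The list median was -0.12. At least 1.2-fold lower were 4 of the 9 (44.4%), against 46.6% of the 73 genes and 22.9% of all features. Past 2-fold were 0 of the 9, against 4.11% of all features. CG9935, now named Ekar, a kainate-type glutamate receptor gene (chromosome 4, 636131 to 646556), had the lowest ratio of all 73 genes. It had 2.24 FPKM in miR-305 males and 4.50 FPKM in control males, which is 2.01-fold lower in FPKM but -0.76 on the log2(FPKM + 1) scale. Its neighbour CG1732, now named Gat, which encodes a GABA transporter of glia (629691 to 635350), ends 780 bases away and had the second highest ratio of the 73 genes, 0.32, with 15.7 against 12.4 FPKM. The vesicle priming gene unc-13 had 13.6 against 17.8 FPKM and the calcium sensor gene Syt7 had 4.97 against 7.23 FPKM, whereas Caps, which acts in release from dense core vesicles, had 12.3 against 11.8 FPKM. The plasma membrane calcium pump gene PMCA was near equal at 76.0 against 73.3 FPKM. The metabotropic glutamate receptor gene mGluR (0.86 against 0.93 FPKM) and the kinesin gene Kif3C (1.04 against 0.89 FPKM) were too low for the filter. A separate list of neuronal marker genes, all but onecut from other chromosomes, had a median of -0.34 over 12 genes. Of these 10 (83.3%) lay below 0, against 53.6% of all features. The 12 genes summed to 101 FPKM in miR-305 males and 119 FPKM in control males. The chromosome 4 genes outside the synapse and axon list had the same median as all 73, -0.24, with 55 of 64 below 0. The list left out had a median nearer 0 (-0.12), so its removal could not raise the median. The neuronal marker onecut stayed among the 64. The part of neuronal RNA in the result was not tested.

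Genes that act in RNA silencing lie on the chromosome as well. The gawky gene gw (649041 to 660608) encodes GW182, the protein through which Argonaute and its microRNA repress messenger RNAs, and it had 34.3 FPKM in miR-305 males and 36.8 FPKM in control males. CG11148, now named Gyf, a translational regulator, had 19.8 against 20.2 FPKM. The gene 4E-T, whose product binds eIF4E and acts in messenger RNA repression, had 7.71 against 9.04 FPKM. All 3 lay below 0 and within 1.2-fold. In the RNA and protein handling list 4 of 4 were below 0, against 83.6% of the 73 genes and 53.6% of all features. The list median was -0.06. In this list the nucleic acid binding gene Pur-alpha (19.7 against 26.2 FPKM) differed most. The proteasome shuttle gene Rad23 was near equal (77.4 against 78.8 FPKM). The gene bt encodes projectin, a giant protein of the sarcomere, and had 30.7 FPKM in miR-305 males and 39.9 FPKM in control males. Muscle markers from elsewhere in the genome had a median of 0.06 over 11 genes. Of these 5 (45.5%) lay below 0, against 53.6% of all features. The 11 genes summed to 2309 FPKM in miR-305 males and 2317 FPKM in control males.

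The 22 expressed genes in no list had a median of -0.27, with 18 (81.8%) below 0. Below 0 were 83.6% of all 73 chromosome 4 genes and 53.6% of all features. CG32017 had 3.89 FPKM in miR-305 males and 6.29 FPKM in control males, and CG31998 had 3.99 against 6.32 FPKM. CG32850, now named Rnf11, a RING finger gene, had 10.1 against 14.7 FPKM. The genes of this kind above 0 included CG32006 (2.24 against 1.90 FPKM) and CG31997 (160.1 against 152 FPKM). CaMKI, a calcium-dependent kinase gene, had 126 FPKM in miR-305 males and 129 FPKM in control males. The noncoding RNA sphinx had 1.19 against 1.64 FPKM. CG11231 was the lowest of the 78 genes, with 0.14 against 0.03 FPKM, too low for the filter.

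Lower ratios were spread along the whole chromosome, where 83.6% of the 73 genes lay below 0, against 53.6% of all features. In order of position, the first 25 expressed genes (879 to 375554) had a median of -0.18 with 19 below 0. The next 24 (375640 to 834393) had a median of -0.22 with 22 below 0, and the last 24 (853557 to 1271759) had a median of -0.24 with 20 below 0. Genes on the plus strand had a median of -0.22 (26 of 32 below 0) and those on the minus strand -0.24 (35 of 41 below 0). The 24 expressed genes whose deposited locus also holds another feature had a median of -0.25, and the 49 with a locus of their own had a median of -0.20 with 41 below 0. Neighbours could lie on opposite sides. Zip102B, above 0, stands between Rad23 (-0.03) and CG32850 (-0.50).

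**Figure D5:**
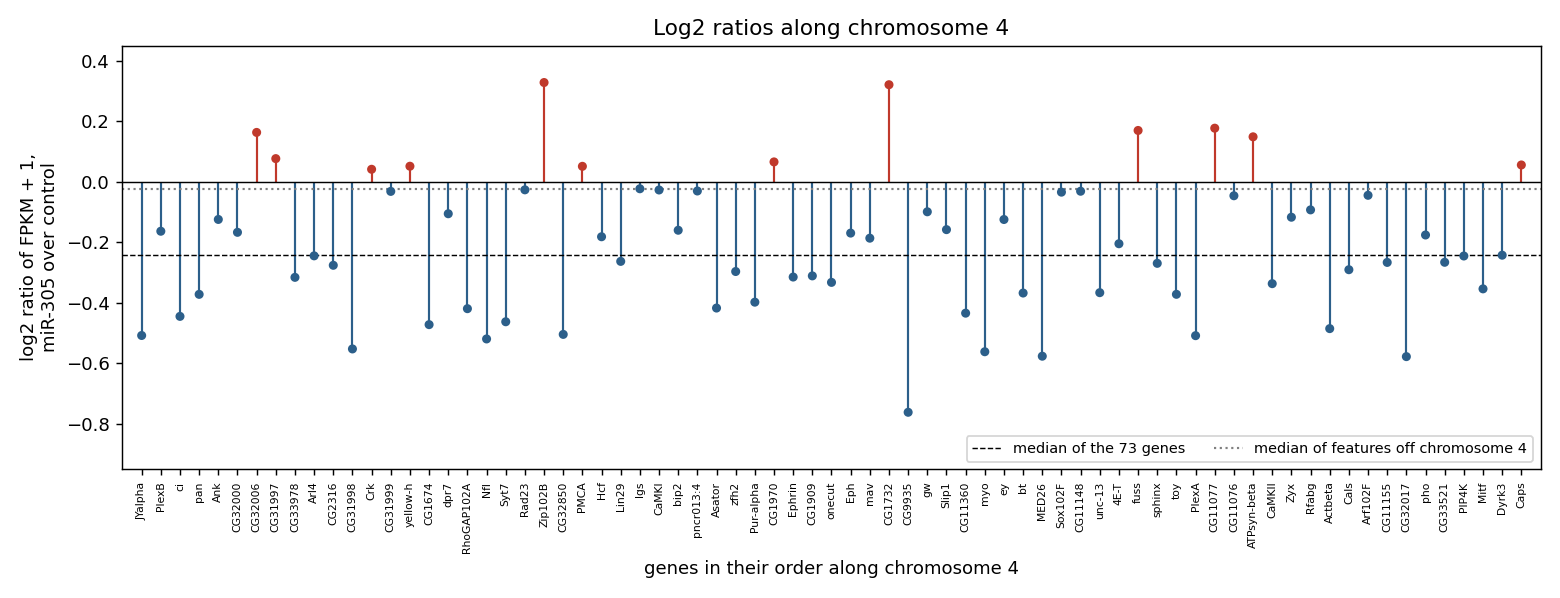
Log2 ratio of FPKM + 1, miR-305 over control (vertical axis), for the 73 expressed genes in their order along chromosome 4 (horizontal axis), with lines at the median of these genes (-0.24, dashed) and of the features off the chromosome (-0.02, dotted). The 61 blue points below 0 occur over the whole length, and the 12 red points above 0 stand singly or in short runs.

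Genes elsewhere in the genome that encode POF, HP1 proteins and their partners differed by small amounts. Of 12 such genes measured on their own, 10 had a ratio below 0, against 53.6% of all features, and the median was -0.17. At least 1.2-fold lower were 3 of the 12 (25%), near the 22.9% of all features, and 0 were past 2-fold, against 4.11%. Pof had 60.8 FPKM in miR-305 males and 76.1 FPKM in control males, a log2 ratio of -0.32. The gene that encodes HP1a had 63.9 against 74.99 FPKM, a ratio of -0.23. The histone methyltransferase gene G9a had 2.31 against 3.22 FPKM, the lowest ratio of the 12 at -0.35. The HP1 interacting genes HP4 (20.6 against 18.7 FPKM) and HP6 (26.2 against 22.6 FPKM) lay above 0, and Su(var)2-HP2 (3.44 against 4.35 FPKM) below. The methyltransferase genes egg and Su(var)3-9 share their features with other genes and were not measured alone. Whether these levels bear on the chromosome 4 genes was not tested.

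Markers of the reproductive tract moved over the same libraries. Testis genes had a median log2 ratio of -0.37, with 13 of 16 (81.2%) below 0, against 53.6% of all features. The testis list summed to 1995 FPKM in miR-305 males and 2767 FPKM in control males. Accessory gland genes had a median of 0.92 (0 of 13 below 0), with sums of 168945 FPKM in miR-305 males and 82587 FPKM in control males. Their part in the ratios of chromosome 4 genes was not tested.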

How the data were processed

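The deposited table gives 1 FPKM value per library and feature, per the file headers, for 1 library of each group. The authors worked on the dm6 build with Cufflinks 2.2.1, TopHat2 2.0.13 and FastQC 0.11.5, per the submitters' processing notes. The strand setting was not given in the sources used here. Depth is unknown, so there are no counting intervals. A value of exactly 0 may be a failed estimate and is called listed at 0.

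The 78 genes were taken by locus and name pattern, and 77 were found by symbol or RefSeq synonym in the Ensembl release 115 annotation of that assembly, 76 of them protein-coding. In all, 14868 of 15906 features (93.5%) matched. Coordinates are 1-based annotation positions on dm6. Cufflinks gives overlapping genes 1 joint locus, and 26 of the 78 genes share theirs with another feature. Reads from overlapping genes are therefore of uncertain assignment. Genes were named when among the 10 highest or lowest ratios, the 12 most abundant or in a gene list. The genes 4E-T, sphinx, CG11231, HP4 and HP6, and the features left out by the name pattern, were named after their values were seen. A fold between 1.2 and 1.3 was used first in place of 1.2 and gave fewer genes. The members and lists were chosen with earlier results of these data known.

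Other settings tried were pseudocounts of 0.1 and 5, a filter at a mean FPKM of 10 or none, scaling to the same median, upper quartile or sum, and features with 1 symbol. Python 3.11.15, numpy 2.4.6, pandas 2.3.3 and matplotlib 3.10.9 were used, and the calculation was tested on simulated data.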

Additional observations from a re-analysis of the deposited data

How the results depend on the processing

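Each alternative kept the median log2 ratio of the chromosome 4 genes below 0 and below that of the other features, and the number past 2-fold was 0 higher and 0 lower under all of them. The median and its gap to the other features were -0.25 and -0.22 with a pseudocount of 0.1, -0.14 and -0.12 with a pseudocount of 5, -0.20 and -0.20 without a filter, and -0.12 and -0.14 at a mean FPKM of at least 10. The median was -0.19 with the same median in both libraries and -0.23 with the same upper quartile. Scaled to the same sum, the values were -0.44 and -0.17. Alternatives chosen after seeing the data gave -0.22 and -0.20 for protein-coding genes, -0.20 and -0.18 for genes with a locus of their own, -0.16 and -0.15 for transcripts under 4000 nt, and -0.29 and -0.20 for longer ones. The number at least 1.2-fold lower was 34 of 73 as reported (against 22.8% of other features, and likewise in brackets below). It was 17 of 73 with a pseudocount of 5 (14.2%) and 11 of 38 at a mean FPKM of at least 10 (19.7%). Scaling gave 25 of 73 with the same median (18.4%), 29 with the same upper quartile (21.5%) and 61 with the same sum (51.6%). For genes with a locus of their own the number was 22 of 49 (22.8%). By length it was 15 of 41 under 4000 nt (22.6%) and 19 of 32 for longer transcripts (22.3%). Single genes changed sign against the deposited values in 9 cases with the same median and 10 with the same sum. No paired analysis was possible because each group has 1 library, and for the same reason no replicate could be left out.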

Other observations

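The name pattern left out 25 features of chromosome 4, of which 21 are named as CR noncoding RNAs or begin with such a name. Of the 14 with a mean FPKM of at least 1, 9 had a log2 ratio below 0, against 53.6% of all features, and the median was -0.11. At least 2-fold higher were 0 of the 14, against 2.36% of all features, and 2 were at least 2-fold lower, against 1.74%. These 2 were the noncoding RNAs CR43437, with 3.58 FPKM in miR-305 males and 9.92 FPKM in control males, and CR45201, with 1.37 against 4.47 FPKM. RpS3A, the ribosomal protein gene of the chromosome, had 3395 against 2837 FPKM, more than ATPsyn-beta in both libraries. The translation initiation factor gene eIF4G had 47.1 against 49.6 FPKM. The feature that joins CR43958 and the DNA glycosylase gene Thd1 had 11.3 against 12.3 FPKM.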
